A study of Mus musculus with 4 samples.

Results

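The genes analysed were 36 aminoacyl-tRNA synthetase genes, which were taken from a fixed list of symbols and were all found among the 22380 protein-coding genes of GENCODE M1. They comprise 20 genes for cytosolic enzymes and 16 genes, with symbols ending in 2, for mitochondrial enzymes. Their promoters were looked up in the peak lists of 2 ChIP-Seq experiments in mouse embryonic stem cells (ESCs) of the E14 line. In the Bio-Myc ChIP, chromatin of a stable E14 clone that expresses Myc with a biotinylated tag was purified on streptavidin beads. The methods describe such clones as made by transfecting BirA-ESCs with the Myc construct. The tagged Myc was driven by the ubiquitous EF1α promoter on top of the endogenous gene, and the list comes from a single clone. The paper reports tagged Myc in amounts similar to endogenous Myc. In the Max ChIP, an antibody against endogenous Max was used on parental wild-type E14 cells. The remaining libraries of the 4 were the controls against which peaks had been called, a mock streptavidin ChIP for Bio-Myc and an IgG ChIP for Max, and both are labelled as parental wild type (the methods describe the mock cells as BirA-ESCs without a tagged protein). The lists hold 3962 Bio-Myc peaks and 11570 Max peaks, each from 1 library, so no value given here has an error between cultures and no difference could be tested against one. The lists hold no read counts, so the depth behind them is unknown. Bound genes were those with a peak reaching to within 1 kb of an annotated transcriptional start site (TSS). Peak scores are 10 times the negative log10 of the p-value, with 80 as the lowest value called, and it was used to rank peaks within a list only.

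Aminoacyl-tRNA synthetases join each amino acid to its tRNA, and so supply the charged tRNAs that ribosomes use. Cytosolic and mitochondrial protein synthesis use largely separate sets of these enzymes, and all of them are encoded in the nucleus, while Gars and Kars each give rise to both forms. The enzymes fall into class I and class II, which have unrelated catalytic folds. Several cytosolic enzymes are held with scaffold proteins in the multisynthetase complex. Myc is known to promote protein synthesis and cell growth, and it binds the E-Box sequence CACGTG as a dimer with Max.

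In total 11 CACGTG sites, in 8 genes, lay under a Bio-Myc and a Max promoter peak at once. They are shown because they mark where in these promoters the sequence bound by the dimer occurs. Each is printed 5′ to 3′ on the strand of the gene in mm9 with 12 bases on either side, and the capitals mark the E-Box.
Dars, chr1:130313236-130313265, minus strand: gacagctgccaaCACGTGttatcttggttt
Farsb, chr1:78485494-78485523, minus strand: ttagacaggcatCACGTGagacagcccaag
Iars, chr13:49777418-49777447, plus strand: gaccaatcgccaCACGTGttgtttgtaggt
Tars, chr15:11329377-11329406, minus strand: tccgcctgtggcCACGTGgcgcacgcgcag
Vars, chr17:35138038-35138067, plus strand: caaagggggggaCACGTGggtgccgctgtc
Vars, chr17:35138301-35138330, plus strand: cgtaccttgcagCACGTGctcaggtcccct
Ears2, chr7:129210501-129210530, minus strand: ctggccgagccgCACGTGgtggccctcggg
Ears2, chr7:129210562-129210591, minus strand: cgcgaaggagccCACGTGtgtgtttctagt
Fars2, chr13:36208563-36208592, plus strand: cagttttgtgtcCACGTGgtctagactgcc
Fars2, chr13:36208819-36208848, plus strand: ggtggacagttgCACGTGcgcgtcatggga
Yars2, chr16:16303311-16303340, plus strand: ggcgactcgctcCACGTGgggcacctgcta

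The position of the E-Box differed between the genes. It was 77 bp upstream of the outermost TSS in Farsb and 39 bp upstream in Iars, and 19 bp downstream, in UTR sequence, in Tars. Both E-Boxes of Vars lay in annotated UTR sequence, 118 and 381 bp downstream of its outermost TSS. In Ears2, the sites at 198 and 259 bp downstream fell in UTR and coding sequence, and the single site of Yars2, 265 bp downstream, in coding sequence. That of Dars lay in an intron, 740 bp downstream, and 510 bp off the middle of the Bio-Myc peak. The shortest distance to a peak centre was found at Farsb and Yars2, with 7 bp to the middle of the Bio-Myc peak and of the Max peak, respectively. Fars2, the mitochondrial phenylalanyl-tRNA synthetase, has 2 E-Boxes, like Vars and Ears2, and both were upstream of the TSS, by 705 and 449 bp. They are 250 bp apart in the sequence below, which overlaps no annotated exon and lies within Lyrm4, the gene on the opposite strand.
Fars2, chr13:36208565-36208846, plus strand: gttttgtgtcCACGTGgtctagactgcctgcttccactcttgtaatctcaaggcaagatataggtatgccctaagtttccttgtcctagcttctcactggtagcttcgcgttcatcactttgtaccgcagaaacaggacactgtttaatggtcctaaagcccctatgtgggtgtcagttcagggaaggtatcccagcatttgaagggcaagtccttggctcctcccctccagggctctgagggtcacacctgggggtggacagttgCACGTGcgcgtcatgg

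Both transcription factors were found at more than 1 in 2 of the synthetase promoters. A Bio-Myc peak was present at 23 of the 36 genes (63.9%, 95% Wilson interval 47.6 to 77.5%) and a Max peak at 27 (75%, 58.9 to 86.2%). In the same window, Bio-Myc peaks were present at 14.6% and Max peaks at 34.8% of the protein-coding genes. These shares include genes that are not expressed in ESCs. According to the paper, starts of highly expressed genes were enriched for Bio-Myc peaks. No share matched for expression is given here, and the part of expression in these counts was not tested. Both peaks were present at 21 genes (58.3%), against 12.7% of protein-coding genes, and in all 21 the peaks overlapped each other. Of the 27 genes with a Max peak, 77.8% also had a Bio-Myc peak, against 36.4% of the protein-coding genes with a Max peak. The intervals treat genes as independent draws, although the list is fixed and Hars and Hars2 share a promoter. They therefore serve only as a guide to how small the counts are, and cover no error between cultures.

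The shares were also set beside those of genes with CpG-rich promoters. By the planned criterion (GC content of at least 55% and an observed to expected CpG ratio of at least 0.6 over 2 kb), only 4 of the 36 promoters were CpG-rich, those of Kars, Vars, Yars and Ears2. Of the 4563 protein-coding genes that met it, 27.1% were bound by Bio-Myc and 62.3% by Max. By the same criterion over the 500 bp around the outermost TSS (added with the data in view), 32 synthetase promoters were CpG-rich. A Bio-Myc peak was found at 21 of these and a Max peak at 23, against 26.3% and 59.3% of the 9962 protein-coding genes that met it. The Max share of the synthetase genes was therefore closer to that of CpG-rich promoters than the Bio-Myc share was.

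The cytosolic enzymes had a Bio-Myc peak at 15 of 20 promoters (75%, 53.1 to 88.8%) and the mitochondrial enzymes at 8 of 16 (50.0%, 28.0 to 72.0%). For Max, the counts were 16 of 20 (80%, 58.4 to 91.9%) and 11 of 16 (68.8%, 44.4 to 85.8%). The intervals of the 2 compartments overlapped in both lists. Since genes are not replicates, this overlap does not show that the compartments are alike, and the difference was not tested. A promoter without either peak was found for 2 cytosolic enzymes, Hars and Qars, and for 5 mitochondrial ones, Aars2, Hars2, Nars2, Pars2 and Sars2. The number of annotated TSSs also differed, with a median of 4.50 for the cytosolic and 3 for the mitochondrial genes, and its part in the counts was not tested. With the outermost TSS alone, the counts did not change in either compartment or list.

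**Figure D1:**
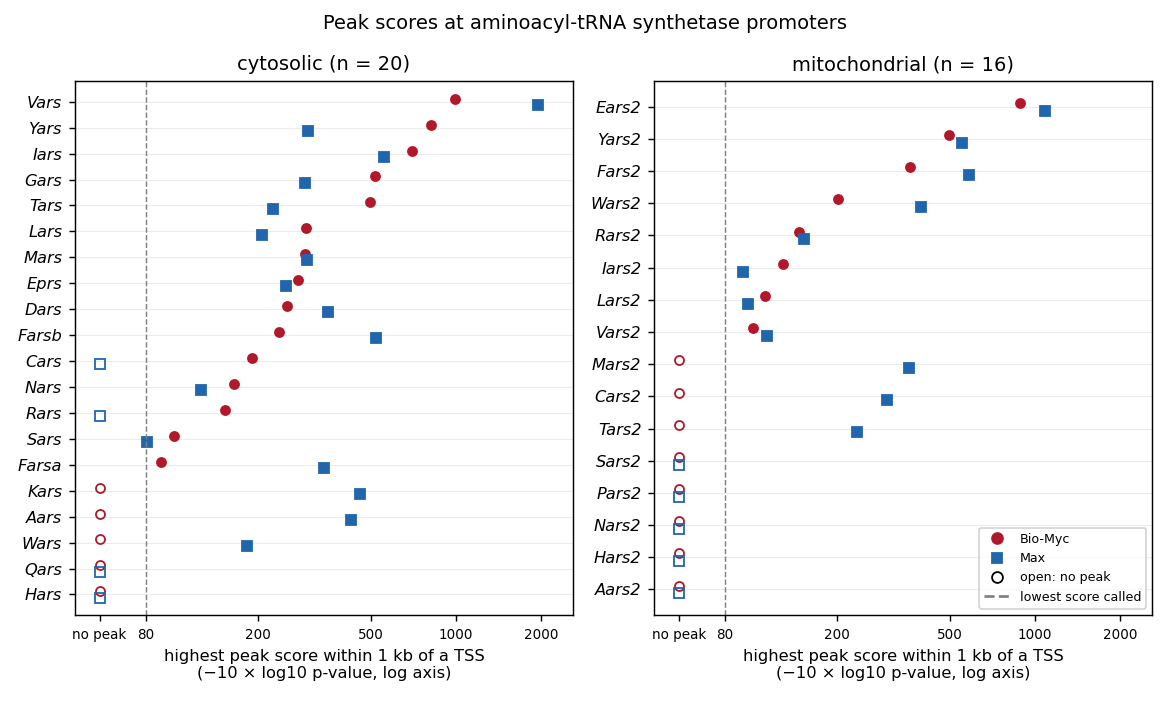
Highest peak score within 1 kb of a TSS (log axis, negative log10 of the p-value times 10) for each of the 20 cytosolic and 16 mitochondrial synthetase genes, with Bio-Myc as circles and Max as squares. Open symbols at the left mark genes without a peak in that list, and Vars and Ears2 have the highest score of their compartment in both lists.

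The Bio-Myc scores of the bound cytosolic genes ran from 90.9 at Farsa to 989.6 at Vars, with a median of 276. Those of the bound mitochondrial genes ran from 101 at Vars2 to 885 at Ears2, with a median of 174. The ranges of the compartments overlapped over most of their length. The median over all bound protein-coding genes was 143. A score of at least 200 was reached by 10 of the 15 bound cytosolic and 4 of the 8 bound mitochondrial genes, and by 30.3% of the bound protein-coding genes. In the Max list, the medians of the compartments were close to each other, with 299 for 16 cytosolic and 300.1 for 11 mitochondrial genes, against 196 for all bound protein-coding genes. Whether the difference in median between the compartments differs between the lists was not tested.

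The counts were also made with stricter limits on the score. At a score of at least 150, which is a p-value of 1e-15, 13 of 20 cytosolic genes (65.0%) and 4 of 16 mitochondrial genes (25.0%) had a Bio-Myc peak, against 6.85% of protein-coding genes. The mitochondrial genes that kept one were Ears2, Fars2, Wars2 and Yars2. For Max, the same limit left 14 of 20 cytosolic and 8 of 16 mitochondrial genes, against 22.6%. At a score of at least 300, the Max shares were 35.0% (7 of 20) and 37.5% (6 of 16), against 9.98% of protein-coding genes. The order of the compartments was thus turned, but only by a small difference. The Bio-Myc shares were 25.0% and 18.8%, against 2.14%.

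**Figure D2:**
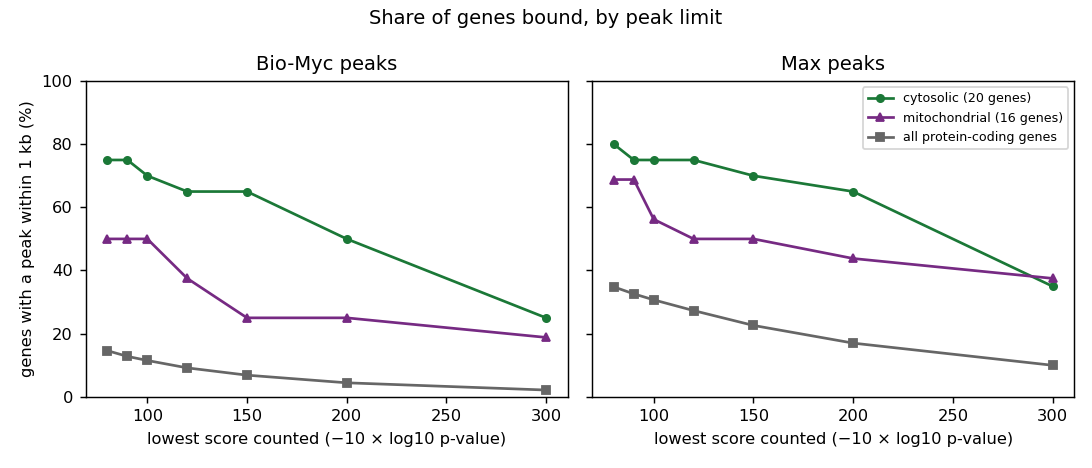
Share of genes with a Bio-Myc peak (left) or a Max peak (right) within 1 kb of a TSS, by the lowest score counted, for the cytosolic and the mitochondrial synthetases and for all protein-coding genes. Both groups lie above all protein-coding genes at each limit, and at a limit of 300 the Max shares are 35.0% and 37.5%.

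Vars, the valyl-tRNA synthetase, had the highest score of all members in both lists. The gene spans 35137932 to 35153267 of chromosome 17 on the plus strand. Its Bio-Myc peak from 35137305 to 35139056 had a score of 989.6, the 17th highest of the list, and its Max peak from 35137473 to 35138756 a score of 1949.5, the 28th highest. Both covered the outermost TSS and each held both E-Boxes shown above. D17H6S56E-5, a gene on the opposite strand, has its TSS 677 bp downstream of that of Vars, within reach of the same peaks.

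Yars, Iars and Gars followed among the cytosolic genes by Bio-Myc score. Yars, the tyrosyl-tRNA synthetase, had scores of 817 for Bio-Myc and 299.8 for Max, and its peaks lay over a start shared with S100pbp, whose TSS is 33 bp away on the opposite strand. Iars, the isoleucyl-tRNA synthetase, had scores of 701 and 555, with the E-Box upstream of its TSS. Gars, the glycyl-tRNA synthetase for both compartments, had scores of 519.8 and 294 without a CACGTG under either peak. Tars, the threonyl-tRNA synthetase, had a Bio-Myc score of 497 and a Max score of 226. Within the Bio-Myc list, the peaks of Yars, Gars and Tars were among the 134 highest-scoring, while their Max peaks ranked between 2463 and 3724 of 11570, so that their places differed between the lists. Iars, in contrast, was at the 98.5 percentile of the Bio-Myc list and 93.3 of the Max list, and Vars at 99.6 and 99.8. Farsb, the beta subunit of the phenylalanyl-tRNA synthetase, stood lower by percentile in the Bio-Myc list (82.3) than in the Max list (92.3). Its scores were 237 for Bio-Myc and 521 for Max, the highest Max score of the cytosolic class II enzymes. Nars, the asparaginyl-tRNA synthetase, had scores of 165 for Bio-Myc, above the median of 129 over all peaks of that list, and 126 for Max, below the median of 160.3.

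Among the mitochondrial genes, Ears2, the glutamyl-tRNA synthetase, had scores of 885 for Bio-Myc and 1084 for Max. Its peaks, from 129210099 to 129211565 and from 129210112 to 129211367 on chromosome 7, covered every annotated TSS of the gene and also the start of Ubfd1 on the opposite strand. Yars2, the mitochondrial tyrosyl-tRNA synthetase, had scores of 496 and 553, and Fars2 of 360.2 and 584. Both were thus high in both lists, and both held the E-Box. Wars2, the mitochondrial tryptophanyl-tRNA synthetase, had scores of 201 and 395 without one. The other mitochondrial genes with both peaks, Rars2, Iars2, Lars2 and Vars2, had Bio-Myc scores of 101 to 146 and Max scores of 92.7 to 153. All 4 Max scores were below the median over the Max list, while the Bio-Myc scores lay on both sides of that of the Bio-Myc list.

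The 16 mitochondrial enzymes were also set beside the cytosolic enzyme for the same amino acid, with Eprs serving glutamate and proline and the subunits Farsa and Farsb taken as 1 enzyme. Bio-Myc peaks were present at both genes for 7 amino acids (glutamate, phenylalanine, isoleucine, leucine, arginine, valine and tyrosine), at the cytosolic gene only for 6 (cysteine, methionine, asparagine, proline, serine and threonine), at the mitochondrial gene only for tryptophan, and at neither for alanine and histidine. Where both were bound, the cytosolic gene had the higher Bio-Myc score in 5 of 7 cases. The widest gap was at valine, with 989.6 for Vars and 101 for Vars2. Glutamate went the other way, with 276 for Eprs and 885 for Ears2. In the Max list, both genes had a peak for 9 amino acids, and the mitochondrial gene had the higher score in 6 of them.

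The structural classes were compared after the peaks had been seen, and so this is a description only. Of the 9 mitochondrial enzymes of class I, 7 were bound by Bio-Myc and all 9 by Max, while of the 7 of class II, 1 was bound by Bio-Myc (Fars2) and 2 by Max (Fars2 and Tars2). The cytosolic classes did not show this contrast, with Bio-Myc peaks at 8 of 10 genes of class I and 7 of 10 of class II, and Max peaks at 7 and 9. Eprs, which serves glutamate and proline, was counted in class I only, although the mitochondrial enzyme for proline, Pars2, is of class II. At a p-value limit of 1e-15, Bio-Myc peaks were left at 3 of 9 mitochondrial genes of class I and 1 of 7 of class II, and at 8 and 5 of 10 cytosolic genes, so that the contrast between the mitochondrial classes was smaller and one between the cytosolic classes larger. Max peaks were left at 6 of 9 and 2 of 7 mitochondrial genes. The 5 mitochondrial promoters without either peak were all of class II. With windows of 5 kb, 2 of the 7 were bound by Bio-Myc and 3 by Max, the additional one being Sars2 in both cases. No share of all protein-coding genes is given for this window. No class II gene of the mitochondrial set lies on chromosome 8, which holds an excess of Max peaks.

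**Figure D3:**
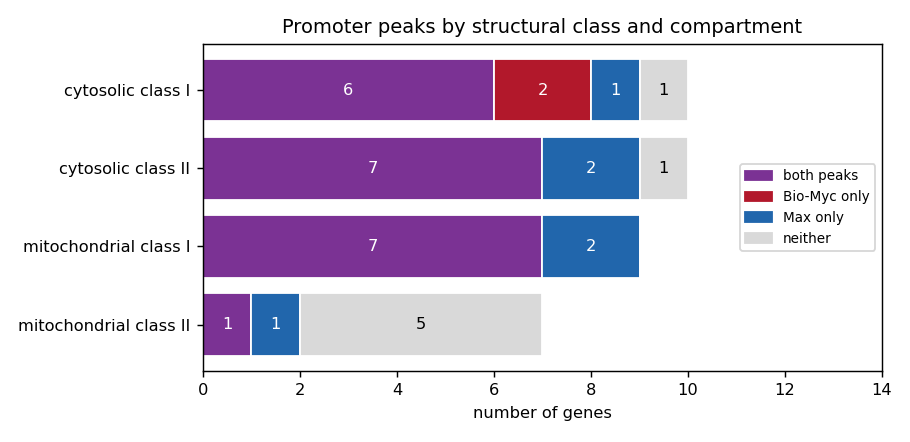
Number of synthetase genes with both peaks, a Bio-Myc peak only, a Max peak only or neither within 1 kb of a TSS, by compartment and structural class. Mitochondrial class II is the only row in which most genes, 5 of 7, have neither peak. Its shares with a Bio-Myc and a Max peak, 14.3% and 28.6%, are near those of all protein-coding genes, 14.6% and 34.8%.

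The multisynthetase complex holds 8 of the cytosolic enzymes. Of these, Eprs, Iars, Lars, Mars and Dars had both peaks, Rars a Bio-Myc peak only, Kars a Max peak only and Qars neither. The share with a Bio-Myc peak, 75%, was the same as that of the 12 cytosolic enzymes outside the complex. Their Bio-Myc scores were 153 for Rars, 254 for Dars, 276 for Eprs, 294 for Mars, 295 for Lars and 701 for Iars. The Max scores were 206 for Lars, 250.1 for Eprs, 297 for Mars, 354 for Dars, 457 for Kars and 555 for Iars. Iars was thus the highest of the complex in both lists, and Lars was near the top by Bio-Myc score and lowest by Max score. The Bio-Myc and Max peaks of Eprs, Lars and Mars covered a TSS without a CACGTG under them. Among the scaffold proteins, Aimp2 had scores of 778 for Bio-Myc and 682 for Max, Eef1e1 of 482 and 616, and Aimp1 had a Max peak only, with a score of 524. The E-Box occurred under the Max peak of all 3 scaffold genes, and under that of 38.6% of the protein-coding genes with one. Of the elongation factor genes with a Max peak, Eef1b2 and Eef1d held it there. Eef1a1, Eef1g, Tufm, Tsfm and Gfm1 did not.

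Peaks of 1 list alone were found at 8 synthetase genes. The Bio-Myc peaks of Cars, the cysteinyl-tRNA synthetase, and Rars, the arginyl-tRNA synthetase, covered a TSS with scores of 190.0 and 153, while the nearest Max peak was 18.8 kb from a TSS of Cars and 3619 bp upstream of Rars. A Max peak alone was present at Aars, Kars, Wars, Cars2, Mars2 and Tars2, with scores of 426, 457, 183, 300.1, 359.5 and 234, in this order. All of these covered a TSS. Aars had a second Max peak within 1 kb, with a score of 374. The nearest Bio-Myc peaks were between 8.18 kb (Aars) and 128 kb (Mars2) from a TSS, the one at Aars lying over annotated UTR sequence near the end of the gene.

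Of the 6 genes with a Max peak only, Aars, Kars and Cars2 lie on chromosome 8, where 60.6% of protein-coding genes had a Max peak, against 33.5% on the other chromosomes. Bio-Myc peaks did not differ in this way, with 16.7% and 14.5%. The fourth member on chromosome 8, Farsa, had a Max score of 342 and the lowest Bio-Myc score of all members, 90.9. Without chromosome 8, which was left out only after the data were examined, 22 of 32 genes were bound by Bio-Myc, 23 by Max and 20 by both, and 3 had a Max peak alone. By compartment, these were 14 of 17 cytosolic and 8 of 15 mitochondrial genes for Bio-Myc, and 13 and 10 for Max. The part of chromosome 8 in the Max counts was not tested.

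**Figure D4:**
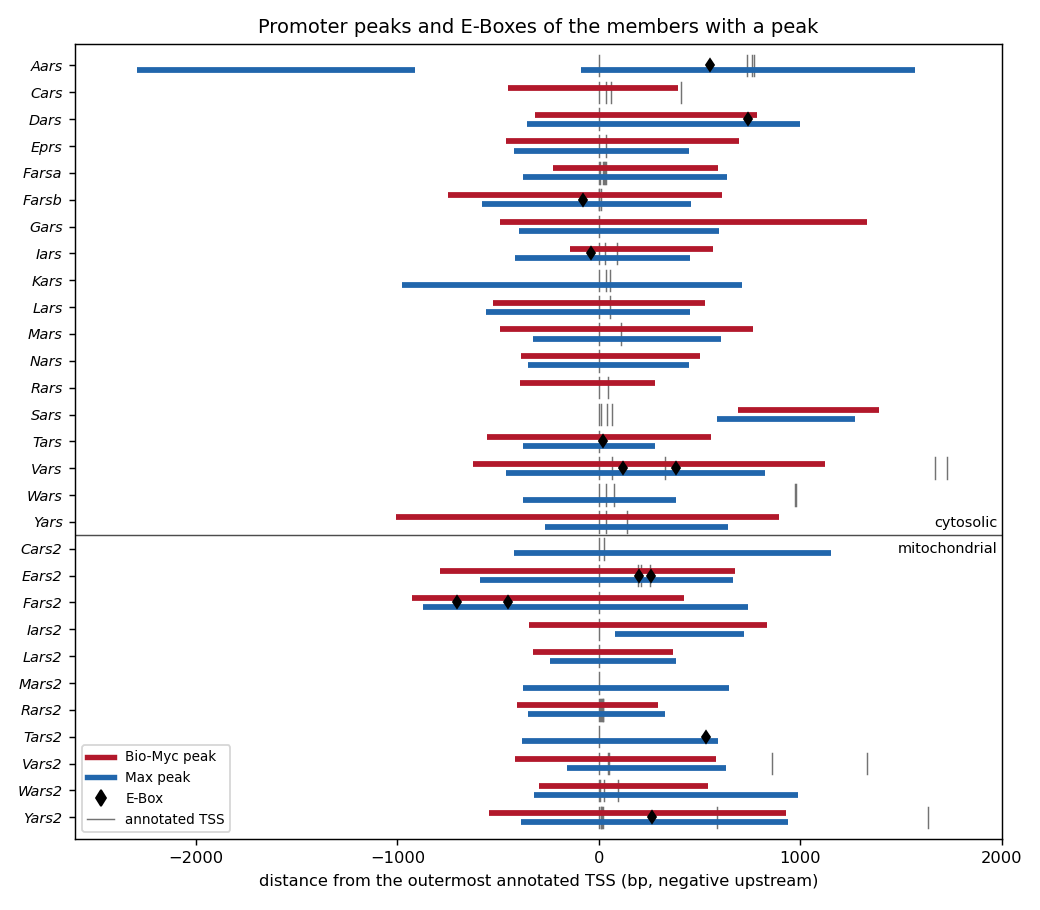
Peaks within 1 kb of a TSS for the 29 synthetase genes with a peak, as distance in bp from the outermost annotated TSS (negative upstream), with Bio-Myc above Max in each row, E-Boxes as diamonds and annotated TSSs as thin lines. A TSS is covered by all peaks but both of Sars and the Max peak of Iars2 when the highest-scoring peak of a gene is taken, and the E-Boxes of Fars2 lie 705 and 449 bp upstream.

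A TSS was covered by the Bio-Myc peak in 22 of 23 genes and by the Max peak in 25 of 27, against 88.9% and 86.1% of the bound protein-coding genes. The gene without a covered TSS in both lists was Sars, the seryl-tRNA synthetase, whose peaks lay in an intron, 624 and 521 bp downstream of the nearest TSS. Their scores, 101 and 80.7, were near the lowest values called. The Max peak of Iars2 began 79 bp downstream of a TSS with a score of 92.7, while its Bio-Myc peak covered the TSS. Median peak widths were 1103 and 1090.5 bp for the cytosolic and mitochondrial Bio-Myc peaks, and 1074 bp for the bound protein-coding genes.

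A start within 1 kb of that of another protein-coding gene on the opposite strand was found for 10 of the 36 genes, and a peak there cannot be assigned to either gene. Both peaks were present at 5 of them, Vars, Yars, Ears2, Fars2 and Rars2, the last with Orc3, a subunit of the origin recognition complex, 13 bp away. At Kars, with Terf2ip, and at Wars, with Wdr25, a Max peak alone was present. The 10 genes were found from the outermost TSS of each gene. Vars2 was not among them, although its Bio-Myc peak also lay within 1 kb of a TSS of Gtf2h4. Hars and Hars2, the cytosolic and mitochondrial histidyl-tRNA synthetases, start 197 bp apart on opposite strands of chromosome 18 and are not independent of each other in these counts. The nearest peaks were 22.4 kb from Hars for Bio-Myc, by Wdr55, and 17.6 kb for Max, by Dnd1.

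The other promoters without either peak differed in how far away the nearest ones were. Sars2 starts 171 bp from Mrps12, a mitochondrial ribosomal protein gene, and its nearest peaks lay 1534 bp (Bio-Myc, score 101) and 1611 bp (Max, score 322) upstream, within 1 kb of a TSS of Mrps12. Each of these peaks held 2 E-Boxes. At Qars, the glutaminyl-tRNA synthetase, the nearest peaks were 1707 and 1572 bp downstream of the last annotated TSS, beyond the end of the gene and by a start of Qrich1. With a window of 5 kb, both genes were therefore counted as bound in both lists. For Aars2, Nars2 and Pars2, the nearest Max peaks were 7.83, 285 and 33.3 kb away, and the nearest Bio-Myc peaks of Aars2 and Nars2 32.6 and 331 kb. A list cut at a p-value of 1e-08 does not show that binding is absent at these promoters.

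The E-Box lay under a minority of these peaks, and for Max the share was near that of all bound protein-coding genes. The lower share for Bio-Myc was not tested. CACGTG occurred in the promoter peaks of 8 of the 23 genes with a Bio-Myc peak (34.8%), against 49.7% of the bound protein-coding genes, and in 10 of the 27 with a Max peak (37.0%), against 38.6%. By compartment, these were 5 of 15 cytosolic and 3 of 8 mitochondrial genes for Bio-Myc, and 6 of 16 and 4 of 11 for Max. The sites under a Max peak alone were at Aars, in UTR sequence, and at Tars2, in coding sequence. Within the central 200 bp of the peaks, an E-Box was found at 3 and 5 genes. A narrower stretch can hold fewer sites in any set of genes. No share of all bound protein-coding genes is given for it, so these counts cannot be read as particular to the synthetases. The highest-scoring Bio-Myc peaks were found both with the E-Box (Vars, Ears2 and Iars) and without it (Yars and Gars).

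Of 23 further genes that act in tRNA charging or hand the charged tRNA to the ribosome, 12 were bound by Bio-Myc, 18 by Max and 11 by both, beside 14.6%, 34.8% and 12.7% of all protein-coding genes. The cytosolic elongation factor genes Eef1a1, Eef1b2, Eef1d and Eef1g had both peaks, with Bio-Myc scores of 217 to 378. The mitochondrial elongation factor genes Tufm, Tsfm and Gfm1 had a Max peak only, with scores of 88.4, 351 and 139. The subunits of the enzyme that forms mitochondrial glutaminyl-tRNA by amidation were divided, with both peaks at Gatc (scores of 109.8 and 182) and neither at Pet112l and Qrsl1. Tarsl2, a paralogue of Tars, had a Max peak only, with a score of 153. Sepsecs and Pstk, which make selenocysteinyl-tRNA, had neither.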

How the data were processed

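Peak lists of a Bio-Myc ChIP and a Max ChIP in E14 ESCs were used. The submitters' processing notes and the methods name CASAVA 1.8 for base calling, Bowtie 0.12.7 for mapping to mm9 with at most 2 mismatches, and MACS 1.4.1 for peak calling at a p-value of 1e-08 against the mock or IgG library. The authors deposited 1 list for each ChIP, with the peak position and a score, the negative log10 of the p-value times 10. The mock and IgG libraries entered only through the peak calls, and the lists give no read depth.

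Peaks overlapping by at least 1 bp the region within 1 kb of any TSS of a gene in GENCODE M1 were counted, and the peak with the highest score was taken for each gene. CACGTG, which is its own reverse complement, was searched on both strands in all promoter peaks of a gene. CpG-rich promoters were defined by a GC content of at least 55% and an observed to expected CpG ratio of at least 0.6 in 2 kb around the outermost TSS. Shares of genes are given with 95% Wilson intervals. With 1 library for each ChIP, no test was made. The counting steps were checked on made-up input with known answers. The scripts ran in Python 3.11.15 with pysam 0.24.0 for sequences, numpy 2.4.6 and scipy 1.17.1 for values, and matplotlib 3.10.9 for plots.

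Values are given for the 4 highest Bio-Myc scores of each compartment, genes lacking a peak, genes sharing a promoter, the multisynthetase complex and genes with CACGTG under a Bio-Myc peak. Other genes named, such as Sars and Nars, were chosen after their values were seen. The genes and lists were chosen with earlier results of these data known, and the split by structural class was made after the peaks had been seen. Other windows, TSS sets, p-value limits and E-Box definitions were tried as alternatives. The values of 1 gene of the list of other aminoacylation genes are not reported here.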

Additional observations from a re-analysis of the deposited data

How the results depend on the processing

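Counts were taken as close when within 1.5 times the reported one, and medians when equal to it. Of 119 alternative values, 100 were close and 19 moved. Each is a single count or median without a direction, so none of them could turn. Genes with both peaks fell from 21 to 14 at 1e-15, at 1e-20 and with the reduced Max list, just within this tolerance, and genes with a Max peak from 27 to 20 at 1e-20 and 19 with the reduced list. At a p-value limit of 1e-20, a Bio-Myc peak remained at 14 genes, and at 4 mitochondrial genes, as at 1e-15. Max peaks at 1e-20 were found at 7 mitochondrial genes. The same number was found when the Max list was reduced to the size of the Bio-Myc list, a setting chosen after seeing the data. Of the other aminoacylation genes, 7 had a Bio-Myc peak at 1e-15 and 6 at 1e-20, and 11 a Max peak at 1e-20 and 10 in the reduced list. Within the central 200 bp, CACGTG was found at 3 genes for Bio-Myc and 5 for Max. With CACGCG counted as well, in the whole peaks, the counts were 16 and 18. These counts are given without the share of all bound protein-coding genes. With a window of 5 kb, the median Bio-Myc score was 265 for cytosolic and 146 for mitochondrial genes, and the median Max score of mitochondrial genes 341. With peaks that cover a TSS, the median was 285 for cytosolic genes with Bio-Myc, and 299.8 for cytosolic and 329.8 for mitochondrial genes with Max. The share of cytosolic genes was above that of mitochondrial genes in 12 of 12 settings for Bio-Myc and 13 of 13 for Max, while at a score limit of 300, outside these settings, it was below for Max. The cause of these changes was not tested. Medians without Hars and Hars2 gave no separate value, since neither has a peak. No paired analysis was possible because each ChIP has 1 library, and for the same reason no replicate could be left out.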

Other observations

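Variants of the E-Box were searched in the highest-scoring promoter peak of each gene, a choice made after the data were examined. CACGCG occurred in 65.2% of the 23 Bio-Myc peaks of synthetase genes and 56.1% of those of bound protein-coding genes, and in 51.9% and 50.0% of the Max peaks. CACGAG occurred in 56.5% of the Bio-Myc peaks, against 36.9%, and in 48.1% of the Max peaks, against 32.3%. CATGTG occurred in 39.1% of the Bio-Myc peaks, against 36.3%, and 37.0% of the Max peaks, against 26.5%. CATGCG went the other way, with 26.1% against 28.6% and 22.2% against 24.8%. Of the 13 genes with CACGAG under a Bio-Myc peak, 6 had no CACGTG there, among them Gars, whose score was 519.8. These differences were not tested, and the peaks of different genes vary in width.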
